A study of Saccharomyces cerevisiae with 36 samples.

Results

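The proline analog azetidine-2-carboxylic acid (AzC) and heat shock were set directly against each other in budding yeast, Saccharomyces cerevisiae, of the strain labelled msn2/4∆. The libraries were chosen by their titles, which name this strain and either treatment: 3 of AzC and 3 of heat shock, 6 of the 36 libraries in the series. By its label the strain is a MATa haploid with the markers his3∆1, leu2∆0, ura3∆0 and met15∆0, in which hphMX4 disrupts MSN2 and natMX4 disrupts MSN4. The cultures grew in YPD, a rich glucose medium, at 25 °C. AzC was given at 10 mM for 1 h at 25 °C, and heat shock was a shift to 37 °C for 15 min, so that agent, length of treatment and temperature all differ between the compared groups and cannot be told apart. Untreated libraries of the same strain (3) and the untreated, AzC and heat shock libraries of WT (3 each) gave the reference values. WT has the same mating type and markers and no disruption. The labels state that each condition was grown in triplicate, but not whether the cultures had separate origins. The p-values thus measure the spread between cultures within a group, estimated over all 36 libraries of the series. The question was which differences between the treatments remain when Msn2 and Msn4 activity is reduced.

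AzC is built into growing proteins where proline belongs, and such proteins fold poorly, while heat unfolds proteins that already exist. Hsf1, the heat shock transcription factor, drives genes for chaperones through heat shock elements in their promoters. Msn2 and its paralog Msn4 drive a wide set of stress genes, among them those for catalase, small heat shock proteins and trehalose, through the stress response element, whose core reads AGGGG. In stressed yeast the genes for ribosomes fall in parallel, and they recover when growth resumes.

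Total counts in the 6 libraries ran from 11720446 to 14501650, and 6109 of 7126 genes passed the filter on low counts. Levels are read counts scaled by library size with TMM factors (CPM), and changes are log2 ratios from an edgeR quasi-likelihood fit, ± standard error, with 3 libraries in each group and Benjamini-Hochberg adjusted p-values. MSN2 (YMR037C, chromosome XIII, 344403 to 346517, build R64), the disrupted gene, was read at 0.655, 2.03 and 0.81 CPM after AzC, 1.68, 1.5 and 2.31 after heat shock and 0.99, 2.09 and 1.14 in untreated cells, against 130.6 or more in each untreated WT library. MSN4 (YKL062W, chromosome XI, 323228 to 325120) was read at 38.2, 32.6 and 41.3 CPM after AzC, at 41, 40.4 and 40.1 after heat shock, at 50.6, 49.6 and 58.4 in untreated cells and at 32.8, 35.5 and 47 in untreated WT. In WT it was read at 63.9, 65.2 and 77.3 CPM after AzC and 105.1, 115.5 and 125.8 after heat shock, above all libraries of the same treatment in the strain labelled msn2/4∆. MSN2 reads were thus nearly absent, whereas MSN4 reads were present in every library, above WT in untreated cells and below WT after either treatment, so the strain is called by its label throughout. LEU2, URA3 and MET17, which is the standard name of MET15, had 0 counts in all 6 libraries. HIS3 was read at 42.4, 56.9 and 55.6 CPM after AzC and 63.3, 60.5 and 69.4 after heat shock, although the label gives alleles marked ∆ for all of these genes. WT, with the same markers, likewise had 0 counts for LEU2, URA3 and MET17. Its HIS3 means were 43.3 CPM after AzC and 52.6 after heat shock. Of the markers of mating type a, MFA1, MFA2, STE2, STE6, BAR1 and AGA2 were all read. Of those of the opposite type, the pheromone genes MF(ALPHA)1 and MF(ALPHA)2 stayed below 1 CPM in all 6 libraries, the receptor gene STE3 stood at 9.83, 9.98 and 8.83 CPM after AzC and 16.5, 16.1 and 18.6 after heat shock, and SAG1, the alpha-agglutinin gene, at 66.7, 73.7 and 70.5 and 44.1, 46.6 and 50.7, so that not all of them were absent. Both were also read in WT, with means after AzC and heat shock of 5.38 and 9.45 CPM for STE3 and 58.4 and 41 for SAG1.

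In the strain labelled msn2/4∆, AzC left the genes for ribosomes at a higher level than heat shock did, and left part of the stress response at a lower one. Many genes for carbon sources other than glucose and for aromatic amino acid breakdown were also lower. These last groups were drawn up after the values had been seen, so their direction is no separate evidence. With a 2-fold minimum and an adjusted p below 0.05, 829 of 6109 genes were called (13.6%), 437 higher after AzC (7.15%) and 392 lower (6.42%). Without the fold minimum, 1714 genes were higher (28.1%) and 1810 lower (29.6%), 57.7% in all, and these are the shares against which the counts of list members below are to be read. The CPM of the 3 AzC and the 3 heat shock libraries did not overlap for 4106 genes (67.2%). The 437 genes called higher had a median log2 difference of 1.57. Against untreated cells of the strain their median was -1.66 after AzC and -3.33 after heat shock. The median thus lay below the untreated level after both treatments and further below it after heat shock. The upper quartile after AzC was 0.075, so part of these genes stood at or above the untreated level then. The 392 genes called lower had a median difference of -1.60, with 0.22 after AzC and 1.93 after heat shock against untreated cells, which places most of the difference on the heat shock side. Both comparisons with untreated cells use the same 3 untreated libraries, and they are given side by side only. Levels are relative to all RNA in a library, and fewer cells of a kind cannot be told apart from less RNA per cell.

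**Figure D1:**
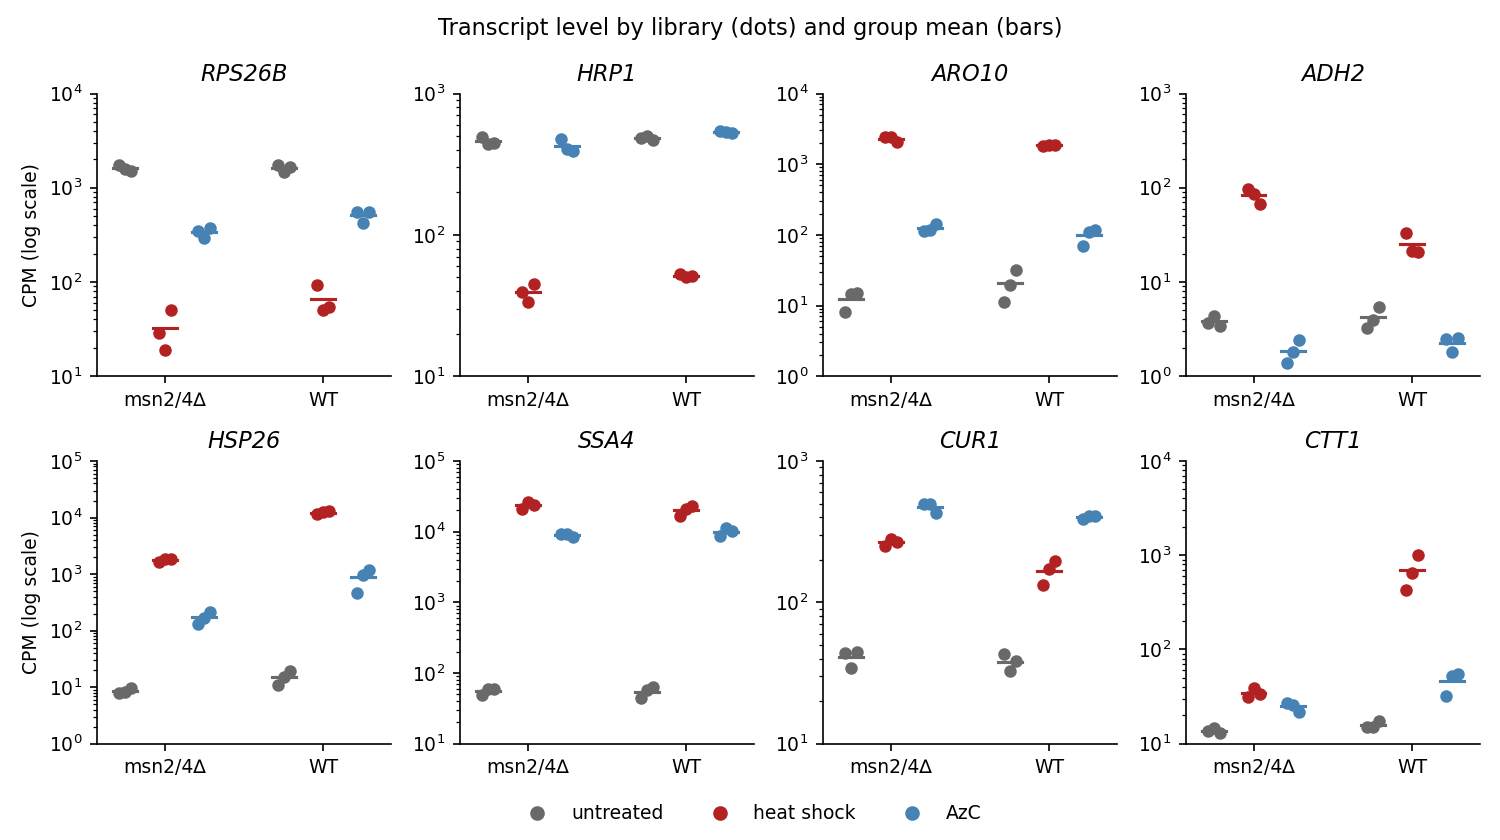
Levels of 8 genes in CPM on a log axis, with a dot for each library and a bar for the mean of 3, in untreated (grey), heat shock (red) and AzC (blue) cells of the strain labelled msn2/4∆ and of WT. RPS26B and HRP1 are higher after AzC than after heat shock in both strains, ARO10, ADH2, HSP26 and SSA4 are lower in both, and CTT1 stands far higher after heat shock in WT than in the strain labelled msn2/4∆.

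The genes for the ribosome itself were higher after AzC with few exceptions. Of 137 cytosolic ribosomal protein genes tested, all but 3 were higher after AzC, 1 was lower (RPL15B at -0.13 ± 0.06, a call lost without AzC replicate 1 or 3 or heat shock replicate 1 or 3, with adjusted p up to 0.202, and with all libraries kept also under DESeq2, both other scalings, no filter on low counts and the compared groups alone) and 2 did not pass, with a median of 1.94 against -0.01 for all genes. Summed over the list, ribosomal protein transcripts took 6.77% ± 0.611 of CPM after AzC and 1.79% ± 0.314 after heat shock, from 23% ± 1.59 in untreated cells (mean ± SD, n = 3). RPS26B (YER131W, chromosome V, 423952 to 424311), which encodes a protein of the small subunit, gave 347, 289.5 and 371 CPM after AzC and 28.5, 19 and 51 after heat shock. The groups were far apart, with a log2 difference of 3.35 ± 0.35 (adjusted p = 3.77e-09), and untreated cells held 1761, 1587 and 1513. Large subunit genes among the highest were RPL24A at 3.04 ± 0.26, RPL9A at 3.01 ± 0.34, RPL26B at 2.88 ± 0.27, RPL8A at 2.80 ± 0.20 and RPL21A at 2.76 ± 0.22. Those of the small subunit were RPS0B at 2.90 ± 0.28 and RPS9B at 2.72 ± 0.22. Most ribosomal proteins of yeast come from a pair of nearly identical genes, and the sources used here do not say how reads shared by a pair were counted.

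Genes that build the ribosome followed with a smaller difference and more spread. Of 62 ribosome biogenesis genes, 43 were higher after AzC, 0 lower and 19 did not pass (median 1.17). All 62 had fallen against untreated cells after either treatment, with a median of -2.67 after AzC (31% of all genes were lower and 67% differed at the same adjusted p) and -3.83 after heat shock (34% and 77.5%). Their summed level was 3352, 2418 and 2959.8 CPM in AzC replicates 1 to 3 and 1974, 959 and 1066 in heat shock replicates 1 to 3, so heat shock replicate 1 stood well above the other heat shock libraries. Without heat shock replicate 1 the count was 57 higher, without heat shock replicate 2 it was 28, and with replicate number as a block 56. The largest differences were those of GAR1, a core protein of the H/ACA particles that modify ribosomal RNA, at 2.10 ± 0.30, and NOP7, which acts in large subunit assembly, at 2.07 ± 0.49. Of 10 genes for RNA polymerase I and its initiation factor, 9 were higher after AzC and RPC19 did not pass (median 1.07), and 4 were higher without heat shock replicate 3. RPA190, the largest subunit, stood at 75.7, 57.2 and 74.2 CPM after AzC and 15.2, 8.61 and 22.1 after heat shock, a difference of 2.17 ± 0.38, and RPA135, the second largest, differed by 2.21 ± 0.45. Among 34 translation factor genes 29 were higher (median 0.71), led by the elongation factor YEF3 at 1.86 ± 0.52 and the scaffold of the cap-binding complex TIF4631 at 1.72 ± 0.23, and 1 was lower, the elongation factor 1B subunit EFB1 at -0.57 ± 0.14.

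**Figure D2:**
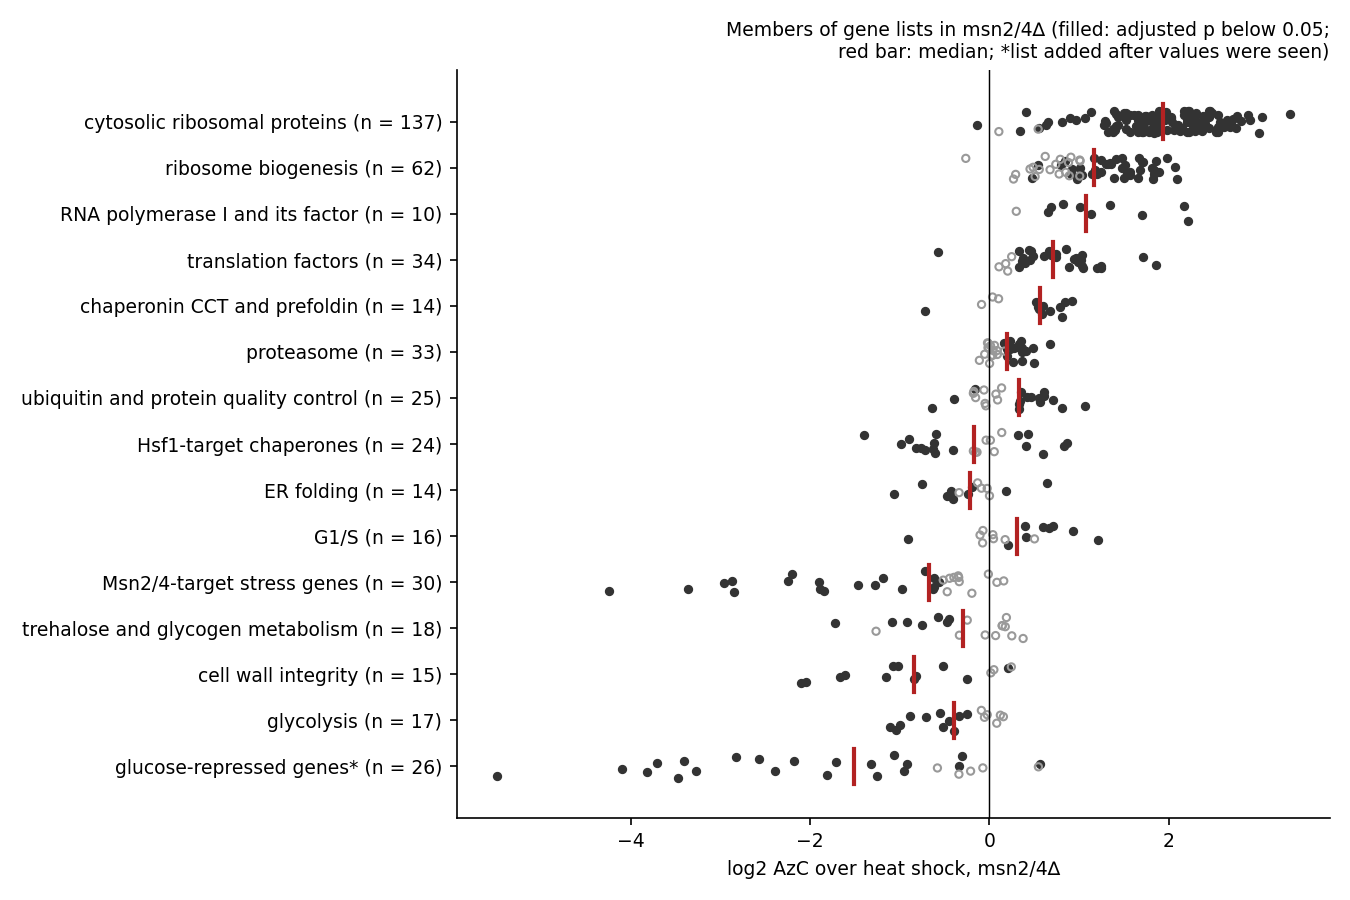
Each point is 1 gene of a list, placed by its log2 ratio of AzC over heat shock in the strain labelled msn2/4∆, filled where the adjusted p was below 0.05, with a red bar at the median of the list. Medians run from 1.94 for cytosolic ribosomal proteins to -1.52 for glucose-repressed genes, a list drawn up after the values had been seen. The Hsf1-target chaperones spread on both sides of 0.

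Outside the ribosome, the genes with the largest higher values after AzC included a pair that act at the ends of transcripts. HRP1 (YOL123W, chromosome XV, 87844 to 89448) encodes an RNA-binding protein of the machinery that cleaves and polyadenylates mRNA, and it gave 475, 404 and 391 CPM after AzC, 39.1, 33.6 and 45 after heat shock and 493, 439 and 447 in untreated cells. The AzC libraries lay in the untreated range or just under it and the heat shock libraries far below, with a difference of 3.43 ± 0.13 (adjusted p = 1.84e-17). NRD1, which encodes an RNA-binding protein that ends transcription of short noncoding RNAs, gave 245, 250.3 and 224 CPM after AzC and 38.3, 30.6 and 32.6 after heat shock, a difference of 2.83 ± 0.16 with no overlap. A list of 10 genes for 3′ end formation and termination, drawn up after these values had been seen, held 8 higher and 1 lower (median 0.73). They included PAB1, the poly(A)-binding protein, at 0.95 ± 0.14, the helicase SEN1 at 0.92 ± 0.06, the cleavage factor RNA15 at 0.81 ± 0.10 and NAB3, the partner of Nrd1, at 0.65 ± 0.12, while CLP1 was lower at -0.25 ± 0.08, a call lost without AzC replicate 1 or heat shock replicate 2, with adjusted p up to 0.0952. On the opposite side stood the noncoding RNAs SCR1 and snR67, of kinds that mostly lack a poly(A) tail. SCR1, the RNA of the signal recognition particle, gave 15.1, 14.5 and 9.31 CPM after AzC, 245, 239 and 169 after heat shock and 19.7, 16.2 and 7.83 in untreated cells, a difference of -4.06 ± 0.36. The small nucleolar RNA snR67 gave 2.36, 1.79 and 1.78 CPM after AzC and 61, 72.7 and 63.4 after heat shock, a difference of -5.04 ± 0.26. Of 72 tested genes whose names begin with snR, 15 were lower after AzC (20.8%, against 29.6% of all genes). Another 4 were higher and 53 did not pass, so snR67 does not stand for most of its class. With the 2-fold minimum 11 of the 72 were lower, as were 6.42% of all genes, and 3 were higher, as were 7.15%. All 81 listed snR genes together summed to 224 CPM after AzC and 391 after heat shock, so low counts limit which of them can pass. The median of the tested genes was -0.35. Without heat shock replicate 1 that median was -0.10. In WT 20 of the 72 were higher after AzC (27.8%, against 30.5% of all genes). There 7 were lower (9.72%, against 32.7%), and the median was 0.23. With the 2-fold minimum 16 were higher in WT, as were 7.86% of all genes, and 7 were lower, as were 9.49%. The libraries were made from poly(A)-selected RNA, and the share of these RNAs that passed the selection was not measured.

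YBR099C also stood among the 12 largest differences, with 69.4, 64.6 and 55.5 CPM after AzC and 5.56, 7.64 and 8.52 after heat shock, a difference of 3.13 ± 0.22. The deposited table lists it as a gene, but it is not in the RefSeq annotation used here, and the sources used here do not say whether the counting used strand.

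Hsf1-target chaperone genes rose after both treatments, and in the direct comparison more of them were lower after AzC than higher. All 24 rose against untreated cells, with a median of 2.93 after AzC (36% of all genes were higher at the same adjusted p) and 2.96 after heat shock (43.5%). Together they took 11.1% ± 0.478 of CPM after AzC and 14.4% ± 1.16 after heat shock, from 1.72% ± 0.0941 in untreated cells. Set directly against each other, 11 of the 24 were lower after AzC (45.8%, against 29.6% of all genes). Another 6 were higher (25%, against 28.1%, so not above the share of all genes), and 7 did not pass. The median of the list was -0.17. The number lower stayed at 10 or 11 when any 1 library was left out, whereas the number higher was 2 without heat shock replicate 1, CUR1 and MBF1.

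SSA4 (YER103W, chromosome V, 364589 to 366517), the strongly inducible cytosolic Hsp70, gave 9278, 9226 and 8498 CPM after AzC and 21190.5, 25949.7 and 23859.7 after heat shock, from 49.3, 59.3 and 59.5 in untreated cells. All AzC values lay below all heat shock values, at -1.39 ± 0.18 (adjusted p = 1.33e-07). HSP104, the disaggregase that pulls proteins out of aggregates, gave 10044, 10404 and 9336 CPM after AzC and 15013, 17534 and 16638 after heat shock, a difference of -0.72 ± 0.17. Several partners of Hsp90 were lower as well, the cyclophilin CPR6 at -0.99 ± 0.09, the activator of its ATPase AHA1 at -0.90 ± 0.09 and its relative HCH1 at -0.82 ± 0.07, and so was HSP82, the inducible Hsp90, at -0.41 ± 0.16, a call lost without AzC replicate 2 or 3 or heat shock replicate 2 or 3, with adjusted p up to 0.105. SIS1, a J-protein partner of Hsp70, differed by -0.60 ± 0.11. CUR1 (YPR158W, chromosome XVI, 843262 to 844020), a factor that sorts misfolded proteins to the nucleus, ran the other way, with 496, 493 and 427 CPM after AzC and 249, 279 and 268 after heat shock. Its groups did not overlap, and the difference was 0.83 ± 0.18 (adjusted p = 0.000299). MBF1, a coactivator of transcription, was higher too, at 0.86 ± 0.13, and SSA1, a constitutive Hsp70 that is also inducible and has the close paralog SSA2, at 0.40 ± 0.14, a call lost without heat shock replicate 1, with adjusted p up to 0.0745. BTN2, the paralog of CUR1, at 0.05 ± 0.23 (adjusted p = 0.854), and the small heat shock protein gene HSP42 at -0.14 ± 0.20 (adjusted p = 0.572), had overlapping groups and did not pass. HSF1 itself differed by -0.05 ± 0.13 and did not pass.

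The promoters of SSA4 and CUR1, which differed in opposite directions, are shown because both hold a pair of inverted heat shock repeats (TTCNNGAA or GAANNTTC) in a window of 300 bases that starts 400 bases before the coding start, and SSA4 also holds AGGGG. The windows lie at chrV:364189-364488 and chrXVI:842862-843161 of build R64, both on the plus strand, and were read from RefSeq. They run 5′ to 3′ in the direction of the gene, with the motifs on either strand in capitals.
SSA4: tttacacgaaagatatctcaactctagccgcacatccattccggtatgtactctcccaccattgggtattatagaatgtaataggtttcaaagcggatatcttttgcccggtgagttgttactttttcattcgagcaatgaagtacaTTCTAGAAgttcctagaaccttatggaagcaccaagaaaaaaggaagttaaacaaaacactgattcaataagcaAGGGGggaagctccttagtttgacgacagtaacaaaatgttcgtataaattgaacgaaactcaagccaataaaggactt
CUR1: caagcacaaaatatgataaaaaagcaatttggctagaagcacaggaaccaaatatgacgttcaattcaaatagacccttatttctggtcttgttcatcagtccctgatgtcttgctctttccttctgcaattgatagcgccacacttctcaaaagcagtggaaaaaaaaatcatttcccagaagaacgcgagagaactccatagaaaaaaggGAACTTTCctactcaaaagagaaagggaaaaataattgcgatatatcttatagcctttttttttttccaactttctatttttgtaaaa

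Such a pair is held by 22 of 24 windows on the Hsf1-target list (91.7%), a list known for Hsf1 binding, and by 23.6% of the windows of all 5733 tested protein-coding genes. A match in these letters is a description of the window, and binding was not measured.

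Genes for protein breakdown and for other folding systems mostly differed by less than 2-fold. All 33 proteasome genes rose against untreated cells after both treatments. Their median was 1.07 after AzC (36% of all genes were higher at the same adjusted p) and 0.85 after heat shock (43.5%). Directly compared, 18 were higher after AzC, 0 lower and 15 did not pass (median 0.19). The core subunit gene PRE2 differed by 0.68 ± 0.06, and RPN4, the activator of proteasome genes, by 0.42 ± 0.15, a call lost without AzC replicate 1 or heat shock replicate 1, with adjusted p up to 0.117. Among 25 genes for ubiquitin and protein quality control 13 were higher, with the ubiquitin-conjugating enzymes UBC5 at 1.06 ± 0.10 and UBC4 at 0.61 ± 0.08 and the nuclear ligand SAN1 at 0.81 ± 0.10, and 3 were lower, with the polyubiquitin gene UBI4 at -0.64 ± 0.12. Of 14 genes for the chaperonin CCT and prefoldin, which fold actin and tubulin, 10 were higher after AzC, and 1 was lower, PAC10 at -0.72 ± 0.13. CCT7 stood at 0.92 ± 0.08 and CCT3 at 0.84 ± 0.08. ER folding genes leaned the other way, with 7 of 14 lower after AzC and 2 higher, among them KAR2, the Hsp70 of the ER, which gave 6219.8, 5569.5 and 5607 CPM after AzC and 8910.3, 10599.5 and 9905 after heat shock, a difference of -0.76 ± 0.13. The 2 that were higher were ERO1, the oxidase that forms disulfides, at 0.64 ± 0.22, a call lost without AzC replicate 1 or heat shock replicate 3, with adjusted p up to 0.0934, and CNE1, which binds glycoproteins as they fold, at 0.18 ± 0.07, a call lost without AzC replicate 3 or heat shock replicate 1, with adjusted p up to 0.117.

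Msn2/4-target stress genes were still lower after AzC than after heat shock in the strain labelled msn2/4∆, though by less than in WT. Of 30 on the list, 19 were lower, 0 higher and 11 did not pass, with a median of -0.67. In WT 29 of the 30 were lower (32.7% of all genes were lower and 63.2% differed), with a median of -2.74. Summed over the list they took 0.232% ± 0.0188 of CPM after AzC and 0.785% ± 0.0329 after heat shock, against 1.28% ± 0.297 and 5.83% ± 0.708 in WT. HSP26 (YBR072W, chromosome II, 382030 to 382674), a small heat shock protein that binds unfolding proteins, gave 130.4, 167 and 216 CPM after AzC, 1627, 1849 and 1814 after heat shock and 8.0, 8.08 and 9.5 in untreated cells. The groups were well separated, at -3.36 ± 0.31 (adjusted p = 4.12e-10), and WT differed by -3.80 ± 0.32 in the same direction. HXT5, a hexose transporter of slow-growing cells, gave 4.26, 7.56 and 8.83 CPM after AzC and 128.8, 126.9 and 133.3 after heat shock, a difference of -4.25 ± 0.28, the largest on the list. SPI1, a cell wall protein, was lower at -2.87 ± 0.20, HOR7 at -2.85 ± 0.21, HSP12, a small membrane-binding stress protein, at -1.90 ± 0.49, and SSA3, another inducible Hsp70, at -1.85 ± 0.15. DDR2 was lower at -2.20 ± 0.46 from only 2.23, 3.04 and 1.86 CPM after AzC and 8.71, 9.36 and 14.7 after heat shock.

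The difference between the strains was tested as the log2 ratio of AzC over heat shock in the strain labelled msn2/4∆ minus that in WT. It was called for 183 genes (3%), 139 with a higher value in the strain labelled msn2/4∆ (2.28%) and 44 with a lower one (0.72%), and at the adjusted p alone for 570 (9.33%) and 474 (7.76%). The 139 had a median of -0.26 in the strain labelled msn2/4∆ and -2.01 in WT, so that they were lower after AzC mainly in WT. Of the 30 Msn2/4-target genes 18 had a higher value at the adjusted p and 0 a lower one, and with replicate number as a block 19 and 1. CTT1 (YGR088W, chromosome VII, 654634 to 656322), the cytosolic catalase, gave 27.1, 26 and 21.5 CPM after AzC and 31, 38.8 and 33.7 after heat shock in the strain labelled msn2/4∆, and the difference of -0.47 ± 0.30 did not pass (adjusted p = 0.176), although the groups did not overlap and a fit of the compared groups alone gave an adjusted p of 0.0107. In WT it gave 32.2, 51.9 and 54.4 CPM after AzC and 425, 653 and 997 after heat shock, with the heat shock libraries all far above, and the strains differed by 3.43 ± 0.42 (adjusted p = 1e-06). ALD3, a cytosolic aldehyde dehydrogenase with a near-identical neighbour, ALD2, gave 16.9, 22.5 and 20.8 CPM after AzC and 19, 18.3 and 19.4 after heat shock in the strain labelled msn2/4∆, which overlap. In WT it gave 28.9, 36.8 and 43.7 CPM after AzC and 507, 656 and 927 after heat shock, and the strains differed by 4.34 ± 0.36. The other genes with the largest such differences were the transketolase TKL2 at 5.26 ± 0.40, GND2 and SOL4 of the pentose phosphate pathway at 3.91 ± 0.26 and 3.82 ± 0.45, the membrane protein FMP45 at 3.93 ± 0.41, RGI1 at 3.72 ± 0.57, RTN2 at 3.69 ± 0.39 and YNR034W-A at 5.12 ± 0.43. TKL2, SOL4, RTN2 and YNR034W-A had overlapping AzC and heat shock groups in the strain labelled msn2/4∆, whereas FMP45 was still lower there, at -2.25 ± 0.30. In contrast, the difference between the strains did not pass for HSP26 at 0.44 ± 0.40 (adjusted p = 0.501), SSA3 at 0.35 ± 0.21 (adjusted p = 0.266) or HOR7 at -0.68 ± 0.27 (adjusted p = 0.0847), though that of HOR7 passed with replicate number as a block (adjusted p = 0.0154). This does not show that the strains are alike.

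**Figure D3:**
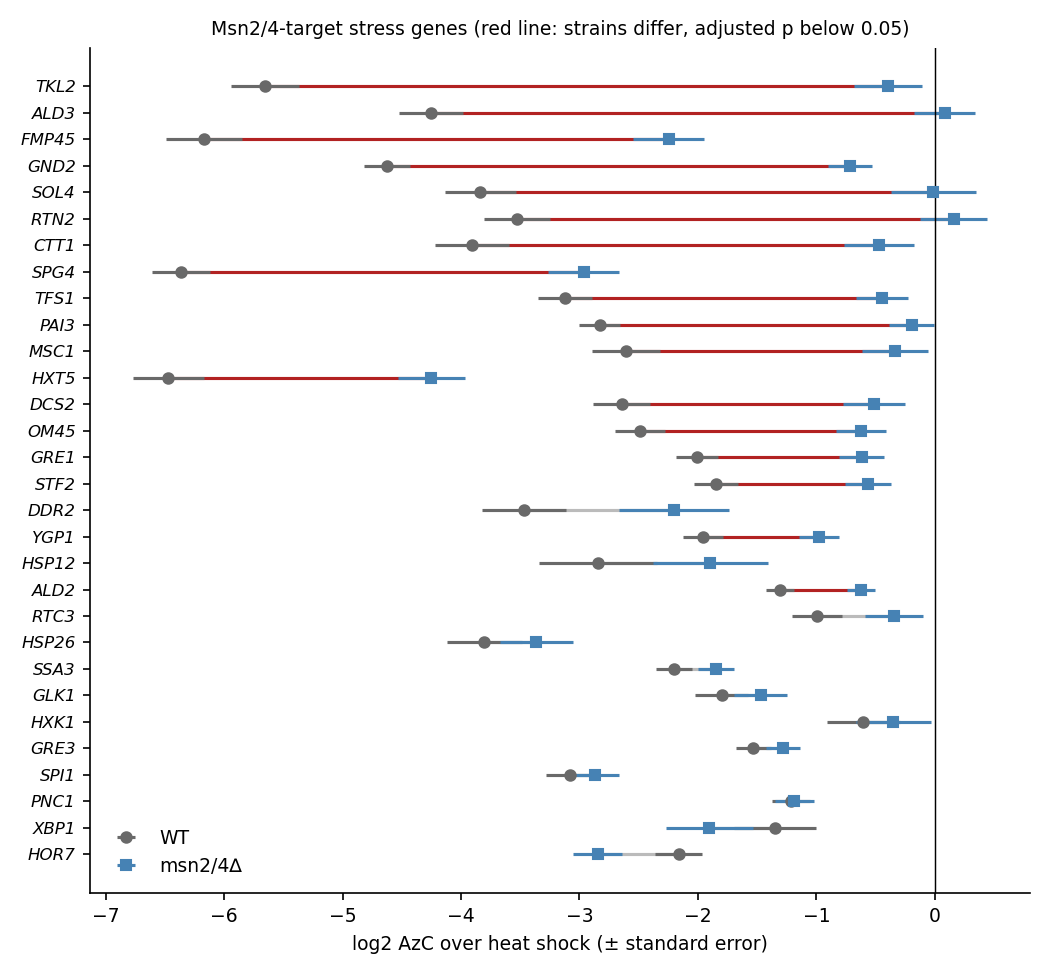
Log2 ratio of AzC over heat shock, ± standard error, of 30 Msn2/4-target genes in WT (grey circles) and the strain labelled msn2/4∆ (blue squares), ordered by the difference between the strains. Red lines mark the 18 genes whose difference passed; TKL2, ALD3, SOL4 and CTT1 lie near 0 in the strain labelled msn2/4∆ and far below it in WT, while HSP26 and SPI1 are low in both.

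Promoters of CTT1, ALD3 and HSP26 are given to set a pair of genes whose difference between the strains was called beside a gene that was lower after AzC by more than 3 log2 units in both. The windows, placed as before, lie at chrVII:654234-654533 (plus strand), chrXIII:600973-601272 (minus strand) and chrII:381630-381929 (plus strand) of build R64, with AGGGG (or CCCCT on the other strand) and heat shock pairs in capitals.
CTT1: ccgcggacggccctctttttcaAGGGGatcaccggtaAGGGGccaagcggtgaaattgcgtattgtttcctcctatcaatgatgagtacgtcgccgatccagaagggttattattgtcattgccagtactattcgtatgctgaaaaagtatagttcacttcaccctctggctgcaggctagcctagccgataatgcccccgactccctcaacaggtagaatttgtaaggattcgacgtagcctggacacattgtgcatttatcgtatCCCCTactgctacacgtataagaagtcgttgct
ALD3: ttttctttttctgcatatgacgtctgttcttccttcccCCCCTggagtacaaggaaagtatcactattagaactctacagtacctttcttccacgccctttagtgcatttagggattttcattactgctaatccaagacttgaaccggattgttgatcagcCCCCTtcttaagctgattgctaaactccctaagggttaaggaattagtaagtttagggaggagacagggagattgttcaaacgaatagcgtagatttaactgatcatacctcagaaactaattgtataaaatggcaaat
HSP26: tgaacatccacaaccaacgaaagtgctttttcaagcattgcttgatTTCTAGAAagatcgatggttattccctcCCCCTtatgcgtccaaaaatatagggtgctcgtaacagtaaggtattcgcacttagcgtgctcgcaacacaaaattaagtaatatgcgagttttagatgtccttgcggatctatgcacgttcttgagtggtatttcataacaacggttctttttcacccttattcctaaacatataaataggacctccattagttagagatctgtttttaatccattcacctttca

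The window of CTT1 holds AGGGG at 3 places and that of ALD3 at 2, neither with a heat shock pair, while that of HSP26 holds AGGGG at 1 place beside 1 heat shock pair, with no overlap between motifs. AGGGG on either strand occurs in 23.9% of the windows of all tested protein-coding genes, in 70.7% (94 windows) of those with a higher difference called in the strain labelled msn2/4∆, and in 3.23% (1 window) of those with a lower one. Among genes called in the direct comparison it occurs in 37.5% of those lower after AzC and 17.7% of those higher. A heat shock pair occurs in 18% of the windows with a higher difference, against 23.6% of all. These shares are counts of letters, and no test was run on them.

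Storage carbohydrate genes showed the same split. Of 18 trehalose and glycogen genes 7 were lower after AzC and 0 higher (median -0.29), against 15 lower in WT (median -1.43), and the difference between the strains passed for 11, all with the higher value in the strain labelled msn2/4∆, and for 6 to 15 when 1 library was left out. TPS1, which makes trehalose phosphate, gave 364, 391 and 363 CPM after AzC and 333, 337 and 343 after heat shock, at 0.14 ± 0.17 (adjusted p = 0.497), and the strains differed by 1.65 ± 0.25 (adjusted p = 2.18e-05). TSL1, a regulatory subunit of the same complex, was lower at -1.72 ± 0.25 in the strain labelled msn2/4∆, and at -1.90 ± 0.25 in WT. In 44 genes the difference was lower in the strain labelled msn2/4∆, with a median of -0.28 there and 1.22 in WT. They included YDR222W at -2.54 ± 0.21, IMD2, an IMP dehydrogenase of guanine nucleotide synthesis with close paralogs, at -2.11 ± 0.18, the regulator SFG1 at -1.95 ± 0.27 and the cell surface protease YPS3 at -1.74 ± 0.24. IMD2 gave 166, 131.6 and 138 CPM after AzC and 139, 142 and 127.3 after heat shock in the strain labelled msn2/4∆, which overlap. In WT it gave 113.7, 92 and 95.6 CPM after AzC and 22.9, 22.2 and 20.4 after heat shock, so that the AzC libraries were higher.

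G1/S genes, which are switched on as cells commit to division, also differed between the strains. Of 16, 8 were higher after AzC and 1 lower, PCL2 at -0.91 ± 0.17 (median 0.30), against 15 higher in WT (background 30.5%, median 1.09), and 11 had a lower value in the strain labelled msn2/4∆ in the test of the difference. RNR1, the large subunit of ribonucleotide reductase, gave 337, 307 and 359.8 CPM after AzC and 156, 135.4 and 142 after heat shock, a difference of 1.21 ± 0.14, and the strains differed by -1.17 ± 0.20. The G1 cyclin CLN2 differed by 0.93 ± 0.12 between treatments and by -1.0 ± 0.17 between strains. Of 12 G2/M genes 6 were higher and 0 lower, led by the polo kinase CDC5, with 172, 191 and 155 CPM after AzC and 68.1, 60.6 and 64 after heat shock, a difference of 1.43 ± 0.08. Among 6 markers of mating type a, 5 were higher after AzC, with AGA2, a subunit of the agglutinin, at 1.58 ± 0.13, the pheromone gene MFA1 at 1.35 ± 0.15 and the receptor gene STE2 at 1.20 ± 0.10, and BAR1 did not pass.

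Genes for carbon sources other than glucose were among those lowest after AzC relative to heat shock, though all cultures grew in glucose medium. A list of 26 glucose-repressed genes of gluconeogenesis, acetate use and fatty acid oxidation, drawn up after the values had been seen, held 20 lower and 1 higher (ICL1 at 0.56 ± 0.12), with a median of -1.52. Against untreated cells the median was 0.89 after AzC and 2.44 after heat shock. ADH2 (YMR303C, chromosome XIII, 873291 to 874337), the alcohol dehydrogenase that consumes ethanol, gave 1.38, 1.79 and 2.43 CPM after AzC, 97.7, 86.2 and 66.6 after heat shock and 3.66, 4.37 and 3.43 in untreated cells. The difference of -5.50 ± 0.30 (adjusted p = 1.95e-14) was the largest among the genes named by size. Its near-identical paralog ADH1 was read at 6413, 6408 and 7524 CPM after AzC and 12509.6, 12732 and 12443 after heat shock, and the part of shared reads in the ADH2 values was not tested. ALD4, the mitochondrial aldehyde dehydrogenase of the same pathway, gave 134.6, 182 and 158 CPM after AzC and 1946, 2284 and 2486 after heat shock, with a difference of -3.82 ± 0.23 and no overlap. CRC1, the mitochondrial carnitine carrier, differed by -4.10 ± 0.14, the activator of gluconeogenic genes SIP4 by -3.71 ± 0.18, the ammonium and acetate transporter family member ATO2 by -3.47 ± 0.19, the acyl-CoA oxidase POX1 by -3.41 ± 0.21 and the acetyl-CoA synthetase ACS1 by -2.58 ± 0.10. CRC1, SIP4, ATO2 and POX1 were at or under 1.94 CPM in every untreated library. FBP1, a key enzyme of gluconeogenesis, had overlapping groups and did not pass, at 0.55 ± 0.35 (adjusted p = 0.181). Of 17 glycolysis genes 11 were lower after AzC and 0 higher (median -0.39), with the minor pyruvate kinase PYK2 at -1.11 ± 0.14 and ENO1 at -1.0 ± 0.16. The transporters of glucose split, with HXT3 at 2.23 ± 0.47 and HXT1 at 1.55 ± 0.41 higher after AzC and HXT2 at -1.54 ± 0.17 and the sensor RGT2 at -1.03 ± 0.09 lower.

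Genes for the breakdown of aromatic amino acids included a pair with high levels after heat shock and far lower ones after AzC. ARO10 (YDR380W, chromosome IV, 1234218 to 1236125), the decarboxylase that leads to fusel alcohols, gave 114.5, 115.3 and 145 CPM after AzC, 2404, 2441 and 2049.7 after heat shock and 8.0, 14.7 and 15 in untreated cells. The groups were far apart at -4.20 ± 0.35 (adjusted p = 7.46e-11), and WT differed by -4.23 ± 0.35. ARO9 (YHR137W, chromosome VIII, 375709 to 377250), the aromatic aminotransferase, gave 244, 257 and 279 CPM after AzC, 2299, 2636 and 2339 after heat shock and 72.7, 88 and 83 in untreated cells, a difference of -3.22 ± 0.25. ARO80, which encodes their activator, was lower at -0.71 ± 0.08. These genes were grouped after their values had been seen. Their promoters are shown because both hold repeats of CCG spaced 7 bases apart (CCGNNNNNNNCCG), in windows at chrVIII:375309-375608 and chrIV:1233818-1234117 of build R64, both on the plus strand, with the repeats on either strand in capitals.
ARO9: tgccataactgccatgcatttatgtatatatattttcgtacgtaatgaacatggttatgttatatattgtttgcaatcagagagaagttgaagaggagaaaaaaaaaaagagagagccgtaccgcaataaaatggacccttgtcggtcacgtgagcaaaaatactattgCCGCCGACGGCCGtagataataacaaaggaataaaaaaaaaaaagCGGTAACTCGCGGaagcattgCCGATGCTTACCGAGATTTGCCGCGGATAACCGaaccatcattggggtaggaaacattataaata
ARO10: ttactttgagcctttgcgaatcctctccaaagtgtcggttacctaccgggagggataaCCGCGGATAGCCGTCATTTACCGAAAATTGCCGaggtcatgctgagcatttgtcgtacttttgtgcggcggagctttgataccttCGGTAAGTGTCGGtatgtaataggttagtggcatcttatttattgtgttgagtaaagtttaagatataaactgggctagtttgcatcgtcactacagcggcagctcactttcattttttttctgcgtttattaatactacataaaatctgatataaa

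The repeat occurs at 5 places, some overlapping each other, for ARO9 and at 4 for ARO10. At least 1 such repeat lies in 4.03% of all windows and 2 or more in 0.558%. The letters were searched after both windows had been read, and neither window holds AGGGG or a heat shock pair.

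In the rest of nitrogen and amino acid metabolism, single genes differed in both directions. GLN1, glutamine synthetase, gave 182, 158 and 218 CPM after AzC, 2269.5, 1492 and 1197 after heat shock and 1011, 1088 and 1071 in untreated cells, so that the AzC libraries were the low ones, at -3.15 ± 0.24. SHM2, which supplies one-carbon units for purines, likewise gave 208, 193 and 236 CPM after AzC, 1517, 1396 and 1343 after heat shock and 825, 913 and 844 in untreated cells, a difference of -2.74 ± 0.15, and ADE17 of purine synthesis differed by -2.63 ± 0.15. Of 21 purine genes 11 were lower after AzC and 4 higher, the latter including the salvage enzyme APT1 at 1.38 ± 0.15 and IMD4 at 1.30 ± 0.31. Gcn4-target amino acid genes differed in shares near those of all genes, with 12 of 40 higher and 13 lower, ARO4 at 2.03 ± 0.17 and ILV3 at 1.36 ± 0.21 on the high side and ARG1 at -1.96 ± 0.16 and CPA1 at -1.63 ± 0.35 on the low side. GCN4 itself differed by -0.11 ± 0.09 and did not pass. Among 7 proline genes, PRO1, which starts proline synthesis, was higher after AzC at 0.61 ± 0.14 and so was PUT2 at 0.40 ± 0.08, while PUT1, the first enzyme of proline breakdown, was lower at -0.64 ± 0.16, and 4 did not pass. PUT1 gave 35.6, 40.4 and 41 CPM after AzC and 62.2, 54.3 and 65.3 after heat shock, both above the untreated 7.77, 7.41 and 9.06. In the methionine pathway SAM1 was higher at 1.99 ± 0.29 and MET6 lower at -1.38 ± 0.17.

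Cell surface genes formed groups of opposite sign. Of 15 genes listed for the cell wall integrity pathway, 11 were lower after AzC and 1 higher (median -0.84). The higher 1 was MLP1 at 0.20 ± 0.07, a nuclear pore gene that is on the list in error, since the pathway's kinase of that name is KDX1, which was lower at -1.67 ± 0.14. CWP1, a wall mannoprotein, gave 158, 206 and 242 CPM after AzC and 886, 845 and 876 after heat shock, a difference of -2.11 ± 0.26, and GSC2, a glucan synthase, differed by -2.05 ± 0.14. The mannoproteins of cold-shocked or anaerobic cells were higher, 6 of 7, with TIR3 at 87.7, 90.0 and 104.7 CPM after AzC and 13.8, 16 and 24.3 after heat shock, a difference of 2.38 ± 0.14, and TIR1 at 1.58 ± 0.27. Of 10 Pdr1-target drug resistance genes 7 were lower, including the exporter SNQ2 at -0.82 ± 0.11, and 1 was higher, YOR1 at 0.75 ± 0.10. ENA1, a sodium pump with near-identical neighbours that can share its reads, differed by -3.32 ± 0.17. Respiratory chain genes were lower in 15 of 38, and mitochondrial ribosomal protein genes differed in shares near those of all genes or below them, with 16 higher and 15 lower of 66 (10 to 21 and 8 to 14 when 1 library was left out). Sterol genes were higher in 13 of 24 and lower in 2.

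Across all 6109 genes the difference between the treatments in the strain labelled msn2/4∆ followed that in WT, with Pearson's r = 0.803 and a slope of 0.852 by total least squares, as a description across genes, which are not independent replicates. The 4 groups share no library. In WT 1060 genes were called (17.4%), 480 higher after AzC (7.86%) and 580 lower (9.49%). Of the genes called higher, 305 were called in both strains, which is 69.8% of those of the strain labelled msn2/4∆ and 63.5% of those of WT. Of the genes called lower, 295 were shared, 75.3% and 50.9%. Ribosomal protein genes had medians of 1.94 and 2.05 in the strain labelled msn2/4∆ and WT. In WT the values were 3.38 ± 0.13 for HRP1, -3.14 ± 0.25 for ARO9, -3.45 ± 0.30 for ADH2, -1.02 ± 0.17 for SSA4 and 1.27 ± 0.18 for CUR1, each in the same direction as in the strain labelled msn2/4∆. For ADH2 the difference between the strains was called, at -2.05 ± 0.46, with the heat shock libraries of WT at 33, 21.2 and 20.9 CPM and its AzC libraries at 2.47, 1.79 and 2.56.

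**Figure D4:**
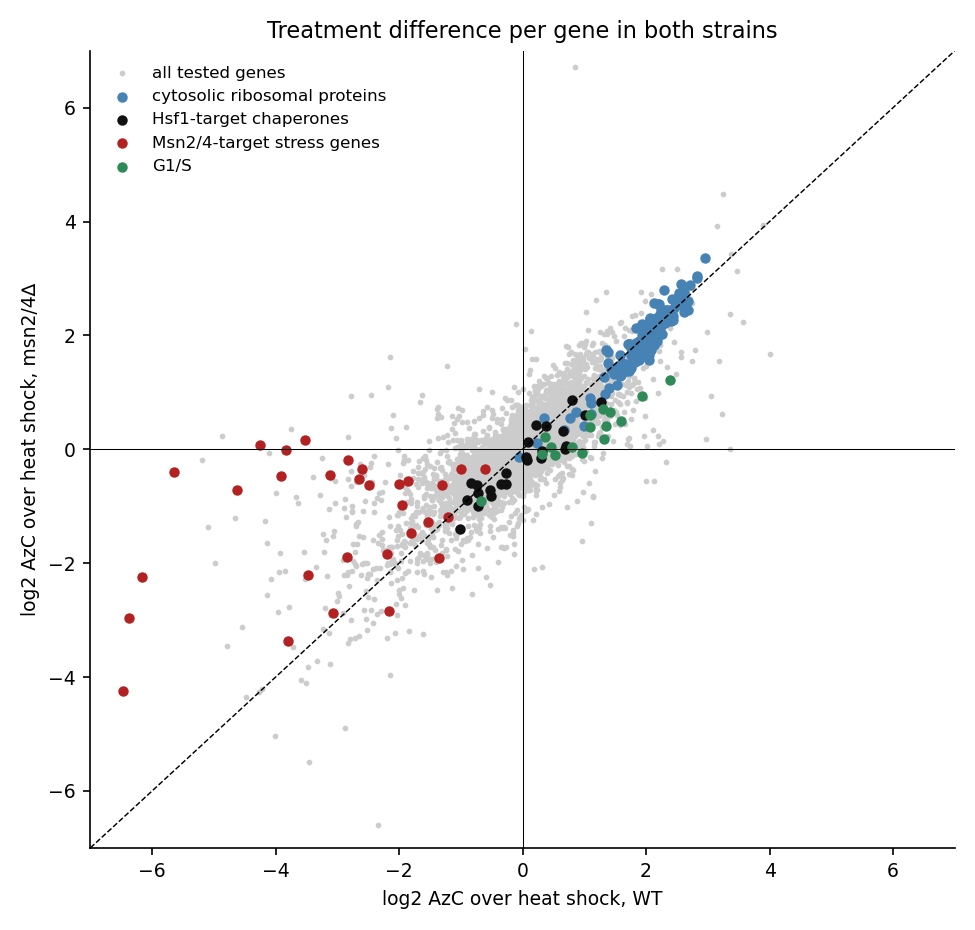
Each point is a gene, with its log2 ratio of AzC over heat shock in WT on the horizontal axis and in the strain labelled msn2/4∆ on the vertical axis; the dashed line marks equal values. Ribosomal protein genes (blue) lie along the line at high values, Hsf1-target chaperones (black) lie near the line around 0, many Msn2/4-target genes (red) lie far above it at low WT values, and most G1/S genes (green) lie below it.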

How the data were processed

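The deposited table holds whole-number read counts per gene, 1 column a library, made by the authors from coordinate-sorted alignments, per the file headers. Trim Galore, FastQC, STAR and Salmon and genome build R64 are named per the submitters' processing notes, with no version or role. The program that counted reads, its use of strand and its annotation were not given in the sources used here. Poly(A)-selected RNA was sequenced, per the labels' protocols.

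Counts of all 36 libraries were fitted in 1 model of 12 group means (4 strains by 3 conditions) with edgeR 4.0.16 (R 4.3.3), after filterByExpr and TMM scaling, and the quasi-likelihood F test was applied with Benjamini-Hochberg adjustment over 6109 genes. The standard error is the log2 change divided by the square root of F. Called genes had an adjusted p below 0.05 and at least a 2-fold difference. List members were counted at the adjusted p alone. The members and lists were chosen with earlier results of these data known, and 5 of the lists after the values were seen.

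Genes named are a set of stress regulators and targets, the 12 largest and 12 smallest called changes with a mean of at least 10 CPM and no overlap of groups, the 8 largest and 8 smallest differences from WT, and the members of each list with the smallest p or the most extreme change, with all members of lists of 10 or fewer. Alternatives were RLE size factors, library size alone, no filter on low counts, no fold minimum, the compared groups alone, DESeq2 1.42.0, each library left out and a replicate block. Same-numbered libraries deviated together between AzC and heat shock in the strain labelled msn2/4∆ (correlation across genes of 0.333, 0.271 and 0.113 for replicates 1 to 3) and in WT (0.505, 0.236 and 0.434), and the fit without the block was kept as the main one. Replicates within a group differed by more than sampling noise, which does not show that their cultures had separate origins. Each library was counted as 1 sample.

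Promoter windows of 300 bases that start 400 bases before the coding start were read from the RefSeq genome of build R64, in which 6048 of 7126 gene identifiers were found. Binding, sequence variants and protein levels were not analysed here.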

Additional observations from a re-analysis of the deposited data

Results flagged for a closer look

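The test of the difference between strains called 183 genes, listed here because the ratio of AzC over heat shock differed between the strain labelled msn2/4∆ and WT in the edgeR fit. Among the genes named, the log2 difference between strains was positive for TKL2 at 5.26, YNR034W-A at 5.12, ALD3 at 4.34, FMP45 at 3.93, GND2 at 3.91, SOL4 at 3.82, RGI1 at 3.72, RTN2 at 3.69, CTT1 at 3.43 and TPS1 at 1.65, which were lower after AzC in WT and less so, or not, in the strain labelled msn2/4∆. It was negative for YDR222W at -2.54, IMD2 at -2.11, ADH2 at -2.05, SFG1 at -1.95, YPS3 at -1.74 and RNR1 at -1.17. All of these were tested through the difference itself, with 3 libraries in each of the 4 groups.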

How the results depend on the processing

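The count of 829 called genes was 845 with RLE size factors, 855 with DESeq2, 849 with library size alone, 907 without the filter on low counts, 797 in a fit of the compared groups alone, 859 with replicate number as a block, and 774.0 to 944.0 when 1 library was left out (384.0 to 533.0 higher, 385.0 to 411.0 lower). The count of 183 for the difference between strains was 200 with DESeq2, 203 with the replicate block and 155.0 to 223.0 when 1 library was left out. Replicates 2 and 3 alone, an alternative chosen after seeing the data, gave 904 and 201. Dropping the fold minimum moved every count of calls, to 3524 (1714 higher, 1810 lower) in the direct comparison, 1044 (570, 474) for the difference between strains, 4090 (2197, 1893) for AzC and 4732 (2655, 2077) for heat shock against untreated cells, and 3861 (1866, 1995) in WT. The median of the Gcn4-target list, -0.0263, changed sign to 0.00407 with DESeq2, 0.00405 with RLE size factors and 0.0176 with library size alone, and that of the markers of mating type alpha, -0.23, to 0.19 without the filter and 0.127 without AzC replicate 2 (range -0.534 to 0.127 with 1 library left out); the cause was not tested. BTN2 changed sign to -0.153 in replicates 2 and 3 alone, -0.0291 without AzC replicate 1 and -0.0708 without heat shock replicate 1 (range -0.0708 to 0.137 with 1 library left out), and HSF1 to 0.00192 without AzC replicate 3 (range -0.0906 to 0.00192). Of 1586 values of the named genes under the alternatives of the direct comparison, 1552 kept direction and side of the threshold, 28 no longer passed and 2 newly passed. The replicate block changed no other call of a named gene than that of HOR7 in the difference between strains. Scaling moved the median of all genes by under 0.1 on the log2 scale in the direct comparison and in the difference between strains. Calls against untreated cells moved more with library size alone. Genes called higher went from 655 to 945 after AzC and from 1031 to 1283 after heat shock. Those called lower went from 749 to 646 and from 959 to 832. Levels near 1 CPM rest on few counts, and differences between such levels are limited by depth.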

Other observations

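Some other genes of nitrogen assimilation were also lower after AzC than after heat shock in the strain labelled msn2/4∆. In a list of 8 genes of ammonia and glutamine metabolism, 6 were lower and 2 higher. Of all genes, 29.6% were lower. The list was put together after the values had been seen, so its count cannot be read against that share. MEP1, an ammonium transporter, gave 13.1, 14.4 and 13.8 CPM after AzC and 38.9, 41.8 and 53.3 after heat shock, with no overlap and a log2 difference of -1.70 ± 0.22 by edgeR. GDH1, the glutamate dehydrogenase that fixes ammonium, gave 276, 231 and 310.1 CPM after AzC, 567, 640.0 and 611 after heat shock and 830.3, 958 and 934 in untreated cells, a difference of -1.15 ± 0.12, so that the AzC libraries were the lowest. Among 19 amino acid permeases, DIP5, a transporter of glutamate and aspartate, was lower at -1.16 ± 0.09 and AGP1, a permease of broad range, at -0.98 ± 0.15.

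Sterol genes differed by small amounts and mostly toward AzC, with ERG24, a reductase, at 0.93 ± 0.08 and HMG2, an HMG-CoA reductase, at 0.76 ± 0.07, while ERG5, a desaturase, was lower at -0.74 ± 0.08. Of 10 histone genes HHT2, which encodes histone H3, was lower at -0.54 ± 0.08 and HTB1, which encodes histone H2B, higher at 0.47 ± 0.10, and both have a paralog of nearly the same sequence. In oxidative defence, the peroxiredoxin TSA1 gave 1633, 1602 and 1813 CPM after AzC and 2902, 2967 and 2851 after heat shock, a difference of -0.79 ± 0.07, and OYE2, an NADPH oxidoreductase, differed by -0.64 ± 0.10.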
